A study of Mus musculus with 81 samples.

Results

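The genes described here are the carriers that bring sugars, monocarboxylates and amino acids across cell and lysosomal membranes in mouse macrophages and their progenitors. Every gene with a probe of a single symbol was taken whose symbol starts with Slc1a, Slc2a, Slc3a, Slc7a, Slc16a, Slc36a, Slc38a or Slc43a. Slc2a5 was left out, and the brightest probe stood for a gene with several. This gave 69 members of 22180 genes. Of these, 61 were above the detection floor of 3.041 on the log2 scale in at least 2 arrays and were tested among 17099 genes. The other 8 were Slc2a7, Slc2a10, Slc2a13, Slc7a3, Slc7a12, Slc16a8, Slc36a3 and Slc38a11. The prefix also took in 3 genes that are no carriers, namely the pseudogene Slc2a4rg-ps, the non-coding RNA Slc36a1os and Slc7a6os, a protein-coding neighbour of Slc7a6.

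Gene expression was measured on arrays in 80 samples of 27 groups, 41 samples of wild-type mice in 14 groups and 39 of mice labelled Irf8 knockout in 13 groups. Each group was a population sorted by flow cytometry at one stage. The progenitors were erythro-myeloid progenitors (EMP) of the embryo at embryonic day (E) 8, wild type alone, and the yolk sac populations A1 and A2 at E9.5, which the labels also file under erythro-myeloid progenitors. Microglia of the brain, Kupffer cells of the liver, F4/80high macrophages of the kidney, and CD11bhigh cells of liver and kidney were taken at E14 and from adults of 6 weeks. Langerhans cells of the skin were taken from adults. There were 3 samples in each group but one, wild-type F4/80high cells of the E14 kidney, which had 2. Langerhans samples are titled as GFP+ cells in wild type but not in knockout. The labels name no allele, strain or sex and do not say which samples were pooled or came from separate animals, so p-values measure the spread between these samples, which may be technical. All 3 wild-type E14 Kupffer samples have the same replicate number in their descriptions. So do all 3 wild-type E14 liver CD11bhigh samples and 2 of the 3 knockout ones. These were numbered by their titles and counted as separate samples, which the labels do not settle.

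Cells take up glucose through the facilitative Slc2a carriers and exchange lactate and pyruvate through proton-coupled Slc16a carriers. Slc7a light chains work as exchangers bound to a heavy chain, Slc3a2 in most cells and Slc3a1 in kidney and gut, whereas the cationic carriers such as Slc7a1 work alone. Slc1a5 and the sodium-coupled Slc38a carriers bring in glutamine and other neutral amino acids, and Slc36a1 and Slc38a9 sit on lysosomes, where they take part in signalling of amino acid supply to mTORC1. In macrophages these carriers feed glycolysis, glutathione synthesis and arginine use. Irf8 is a transcription factor of the myeloid lineage.

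The labels were checked against other genes. The Irf8 probe read 9.85, 9.69 and 9.95 in wild-type and 10.29, 10.65 and 9.98 in knockout adult microglia, so it was not lower there. It was called lower in 4 of 13 populations. Where this probe lies relative to the disrupted stretch of the gene is not stated in those labels, so it does not check the genotype, and "knockout" below means the samples labelled so. Microglia, Kupffer and Langerhans marker lists were each highest in the group of that name. The sex-linked genes Xist and Eif2s3y moved with the genotype in adult Kupffer cells, where Xist read 3.23, 2.71 and 3.88 in wild type and 9.99, 9.54 and 9.52 in knockout. Their part in the results was not tested, and Slc38a5 was the single tested member on the X chromosome. Means of 14 immediate early and heat shock genes, which respond to tissue handling, also differed between groups, with 5.47 to 5.58 in wild-type and 7.69 to 7.80 in knockout E14 Kupffer cells.

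Levels below are log2 signals, changes are differences of log2 group means with their standard errors, and a change is called at an adjusted p under 0.05 over all genes tested. Probes are not comparable between genes, so levels are compared within a gene. The samples are bulk RNA of sorted cells, in which fewer cells of a type and less RNA per cell cannot be told apart. Of the 69 members, 27 had a mean above the floor in all 27 groups and 19 exceeded it in every sample. By contrast, 13 were above it in no group mean, 5 of them among the tested. Where a group mean lay under the floor, the fitted difference is measured against background, so the size with that mean set to the floor is given beside it as a lower bound ("at least"). No such bound was worked out for differences between knockout changes.

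**Figure D1:**
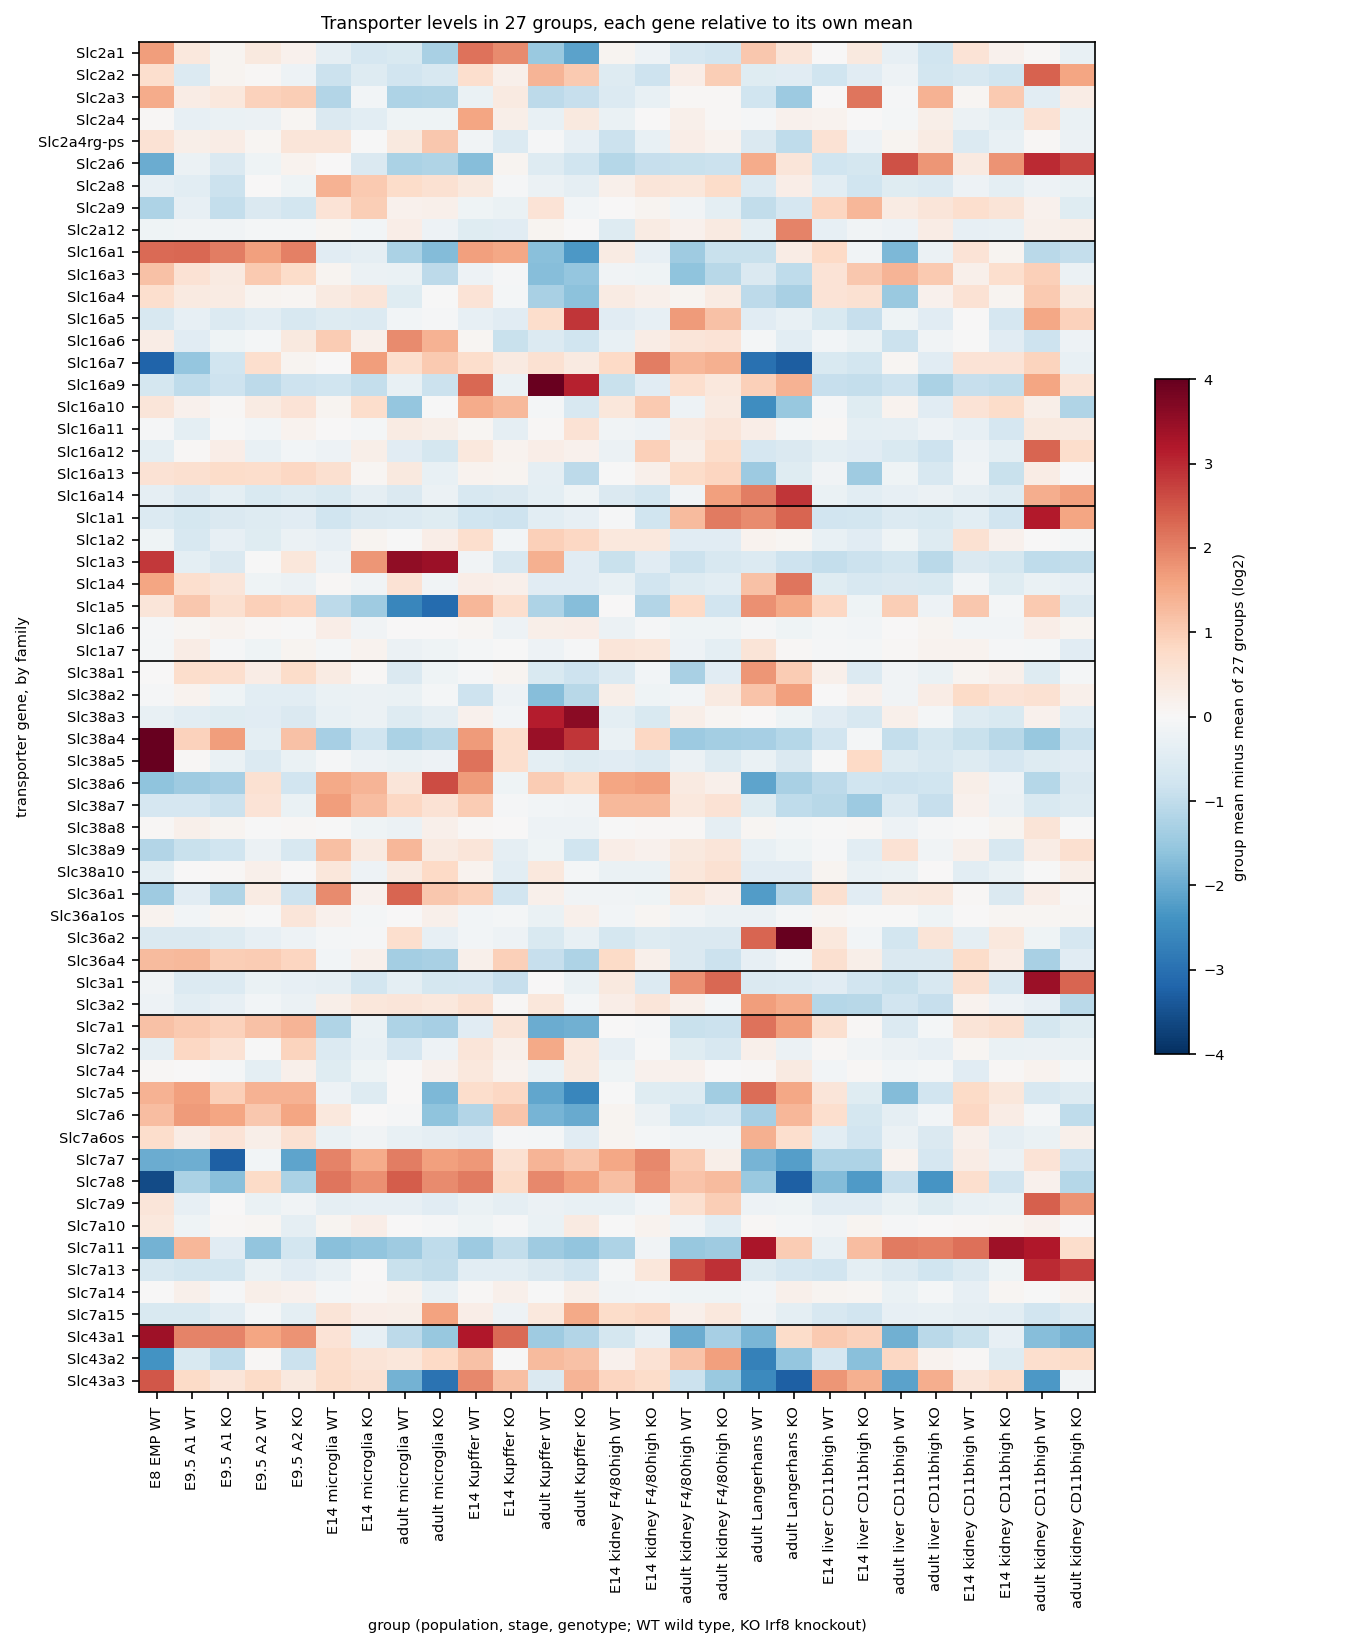
Group means of the 61 tested members (rows, by family) in the 27 groups (columns), each as the difference from the gene's own mean over groups on the log2 scale, red higher and blue lower. Adult Langerhans cells carry Slc7a11, Slc7a1 and Slc7a5 high and Slc7a7, Slc7a8 and Slc16a7 low, and Slc38a3, Slc38a4 and Slc16a9 are highest in adult Kupffer cells or, for Slc38a4, in EMP.

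Slc7a8 had a range of group means of 6.02, from 4.20 ± 1.00 (SD, n = 3) in EMP to 10.21 ± 0.20 (SD, n = 3) in wild-type adult microglia. Slc7a8 encodes LAT2, a light chain for neutral amino acids. The other 11 members of wide range, in no order, were Slc1a5, Slc2a6, Slc7a5, Slc7a7, Slc7a11, Slc16a7, Slc16a9, Slc38a4, Slc38a5, Slc43a1 and Slc43a3. In 7 of these the lowest group mean was under the floor, so that the range is a lower bound. Levels or changes of each follow below, though not always for its highest and lowest group.

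Adult wild-type tissues were compared first, to ask which carriers set one resident population apart from the mean of the other 3. The moderated F-test of limma called 47 of the 61 members as differing among microglia, Kupffer cells, kidney F4/80high macrophages and Langerhans cells, beside 66.3% of all genes. In Langerhans cells the call fell on 40 of 61 members beside 52.8% of all genes, with 17 higher (25.6% of all genes) and 23 lower (27.3%). In microglia it fell on 34 of 61 members beside 41.2% of all genes, with 16 higher (20.5% of all genes) and 18 lower (20.7%). In Kupffer cells it fell on 31 of 61 members beside 39% of all genes, with 14 higher (15.9% of all genes) and 17 lower (23.1%), and in kidney F4/80high macrophages on 27 of 61 members beside 30.2% of all genes, with 12 higher (17.8% of all genes) and 15 lower (12.3%).

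Langerhans cells stood apart by a set of plasma membrane amino acid carriers at high levels. Slc7a11 encodes xCT, the light chain that imports cystine for glutathione in exchange for glutamate. Its level was 6.61, 6.81 and 6.70 in the 3 Langerhans samples, 1.98, 1.48 and 2.58 in microglia, 2.12, 2.36 and 1.66 in Kupffer cells and 2.84, 1.60 and 1.39 in kidney F4/80high macrophages. All Langerhans samples lay above every sample of the other tissues, where the values were under the floor. The difference from the other tissues was 4.71 ± 0.40 (adjusted p = 2.25e-16, at least 3.67 against the floor). The bases upstream of the Slc7a11 start are shown because this gene was also among those that moved most between gates, yolk sac stages and genotypes. The capitals mark both matches, on either strand, to the core of the C/EBP-ATF response element, which reads TGATG, any base and AA, with first bases at -66 and -47 from the start (RefSeq, GRCm38.p6, chr3:50443614-50443863, minus strand).
Slc7a11: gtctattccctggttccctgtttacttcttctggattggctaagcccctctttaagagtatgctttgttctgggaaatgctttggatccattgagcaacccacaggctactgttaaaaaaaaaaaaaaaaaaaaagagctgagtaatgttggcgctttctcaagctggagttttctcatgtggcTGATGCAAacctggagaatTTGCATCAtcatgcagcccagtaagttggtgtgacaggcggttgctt

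These letters occurred in 3.45% of 32851 promoter windows of 250 bases. By gene, they were in windows of 3.91% of 27025 genes and of 2 of the 51 members with a window, Slc7a11 and Slc7a7. A match is a description of these letters and not of a bound site.

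The cationic carrier Slc7a1, which imports arginine and lysine, read 8.22, 8.24 and 8.26 in Langerhans cells and 4.05, 4.03 and 4.19 in Kupffer cells, with a difference from the other tissues of 3.54 ± 0.23 (adjusted p = 1.18e-21). Slc7a5 encodes LAT1, the light chain for leucine and other large neutral amino acids, and read 9.64, 9.70 and 9.93 in Langerhans cells, above every sample of the other 3 tissues. Its difference was 3.09 ± 0.25 (adjusted p = 1.95e-17). The shared heavy chain Slc3a2 read 9.70, 9.75 and 9.88 in Langerhans cells and 8.27, 8.50 and 8.20 in kidney F4/80high macrophages. Slc1a5, encoding the glutamine carrier ASCT2, differed by 2.83 ± 0.40 (adjusted p = 1.17e-08), and its levels were 9.14, 8.82 and 8.93 in Langerhans cells and 4.28, 4.29 and 5.04 in microglia. Glucose carrier Slc2a1, or GLUT1, read 9.13, 9.18 and 9.10 in Langerhans cells against 6.90, 6.47 and 6.33 in Kupffer cells.

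Other light chains were low in Langerhans cells. Slc7a7 encodes y+LAT1, which with Slc3a2 exports cationic amino acids, and read 5.23, 5.30 and 4.77 in Langerhans cells and 9.07, 9.08 and 8.87 in microglia, a difference from the other tissues of -3.34 ± 0.24 (adjusted p = 1.57e-19). Slc7a8 differed by -3.31 ± 0.29 (adjusted p = 1.02e-15). The monocarboxylate carrier Slc16a7, or MCT2, read 3.48, 2.11 and 2.56 and was above the floor in 1 of the 3 Langerhans samples, while no sample of the other tissues was under 5.99. Its difference was -3.87 ± 0.24 (adjusted p = 2.7e-22, at least 3.55 against the floor). The neutral amino acid carrier Slc43a2, or LAT4, differed by -3.66 ± 0.19 (adjusted p = 2.25e-26) and the lysosomal Slc36a1 by -3.24 ± 0.19 (adjusted p = 2.93e-23). Markers of keratinocytes and fibroblasts averaged 5.03 to 5.45 in wild-type Langerhans samples and 2.23 to 2.36 in microglia, and their part in these values was not tested. Nor was the part of tissue handling in the high or low values, and the Langerhans means of the immediate early and heat shock genes are given below.

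Adult microglia carried the glutamate transporter Slc1a3, or GLAST, at 6.38, 6.87 and 6.24, against 4.91, 4.19 and 4.02 in Kupffer cells and values under the floor in every Langerhans and kidney F4/80high sample. The difference was 3.55 ± 0.39 (adjusted p = 9.42e-12, at least 3.01 against the floor). The list of 7 tested neuron, astrocyte and oligodendrocyte markers averaged 2.81 to 2.99 in these microglia, and 5 of the 7 were at or below the floor. Lysosomal Slc36a1, or PAT1, read 8.89, 8.97 and 8.83 and differed by 2.86 ± 0.19 (adjusted p = 3.35e-20). Slc16a6 differed by 1.93 ± 0.14 (adjusted p = 1.23e-18). Slc1a5 went the other way, with -3.08 ± 0.40 (adjusted p = 2.27e-09), and microglia were its lowest wild-type group.

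**Figure D2:**
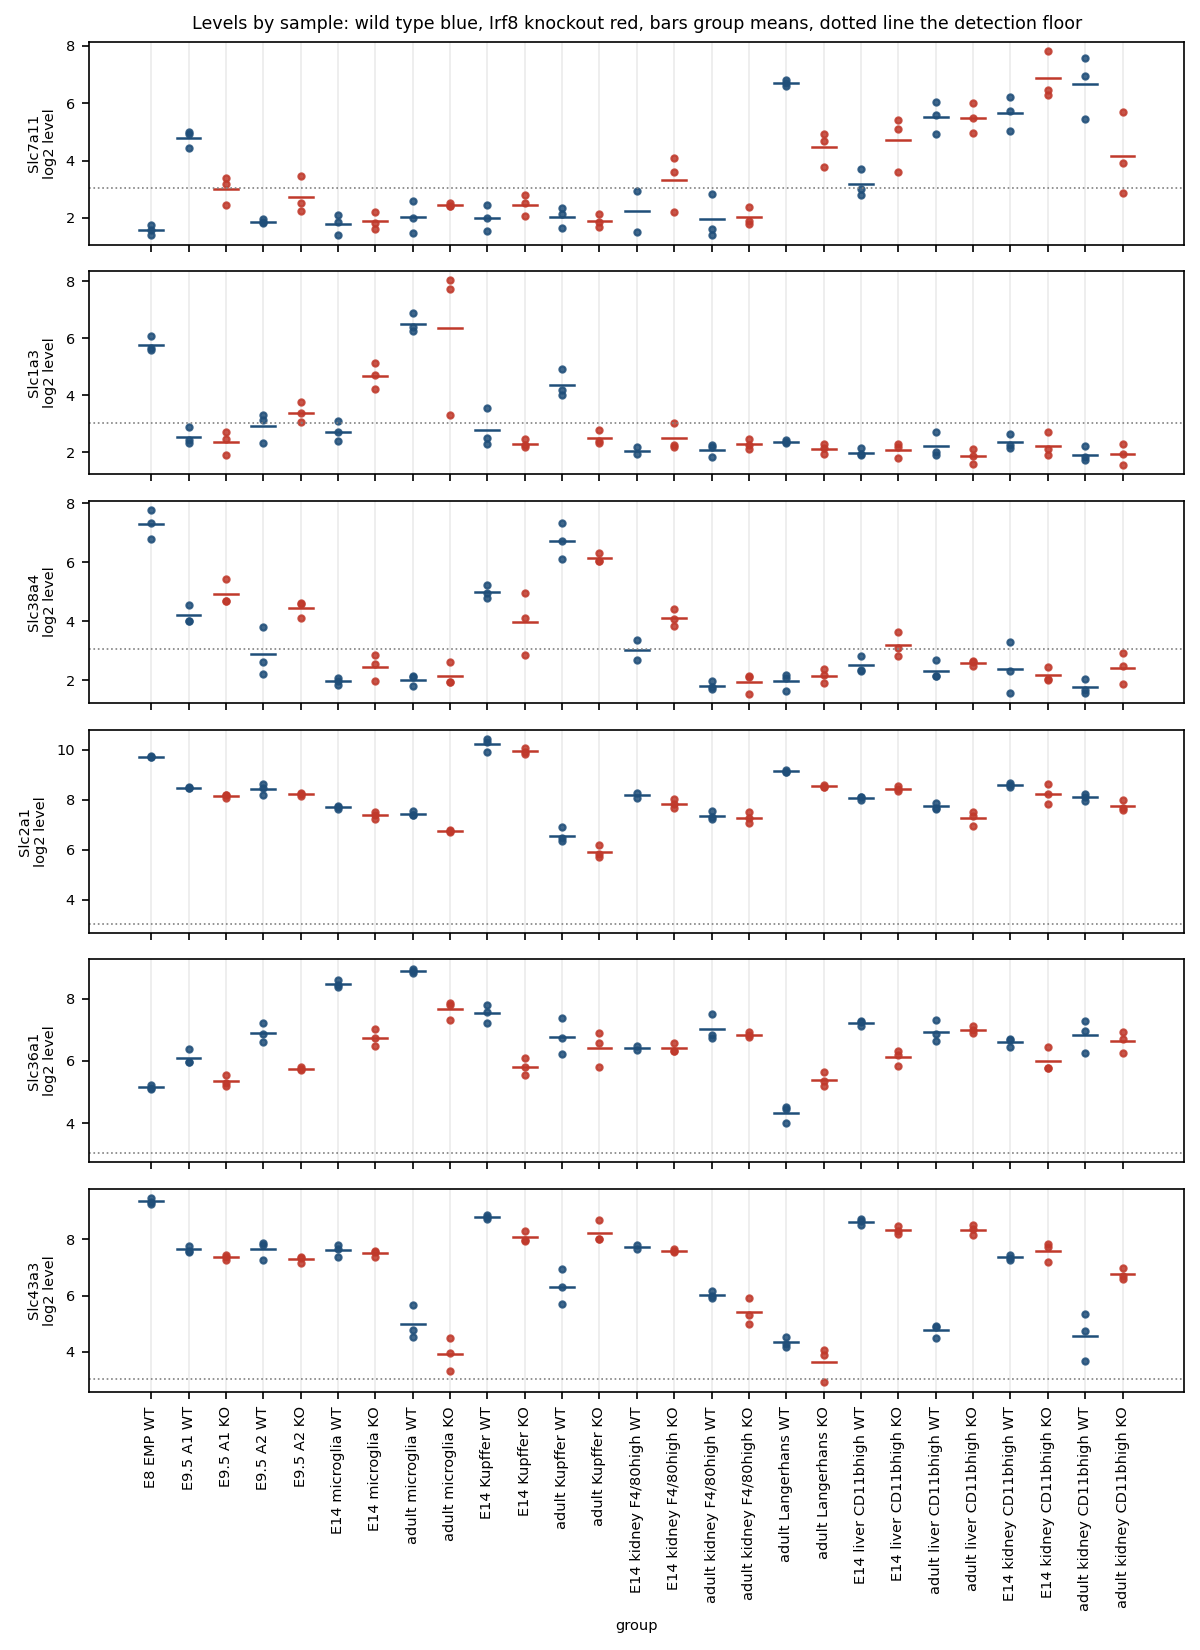
Log2 level in every sample (points) and group mean (bars) of 6 members in the 27 groups, wild type in blue and knockout in red, with the detection floor of 3.041 dotted. Slc7a11 is high in Langerhans cells, wild-type A1 and the kidney and adult liver CD11bhigh fractions, Slc43a3 is higher in knockout than in wild type in 3 adult populations, and 1 of 3 knockout adult microglia samples has Slc1a3 at 3.31 beside 7.73 and 8.03.

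Of the 14 members called higher in Kupffer cells of the adult liver, 3 led those whose samples did not overlap with the other tissues. Of these 3, Slc38a3 and Slc38a4 are well known from hepatocytes. Next came the cationic carrier Slc7a2, with a difference of 1.83 (at least 1.46 against the floor), and Slc38a6. Slc38a4, or SNAT4, read 6.73, 7.33 and 6.11 and differed from the other tissues by 4.80 ± 0.29 (adjusted p = 2.45e-22, at least 3.68 against the floor). The glutamine carrier Slc38a3, or SNAT3, read 5.45, 6.59 and 5.19 with a difference of 3.22 ± 0.24 (adjusted p = 2.44e-18, at least 2.70 against the floor), and Slc16a9 read 7.39, 7.44 and 7.07 with a difference of 3.53 ± 0.34 (adjusted p = 1.47e-13). Hepatocyte markers stood high in the same samples. The mean of the 10 tested was 8.16 to 8.44 in wild-type adult Kupffer samples, 4.75 to 5.35 in the CD11bhigh cells of the same organ and 3.53 to 3.62 in microglia. Slc38a3, Slc38a4 and Slc16a9 were all under the floor in the adult liver CD11bhigh samples. The part of hepatocyte RNA in these values was not tested. Low in Kupffer cells were Slc7a5, at -2.63 ± 0.25 (adjusted p = 3.73e-14), Slc7a1, at -1.99 ± 0.23 (adjusted p = 3.71e-11), the glutamine and alanine carrier Slc38a2, at -1.97 ± 0.16 (adjusted p = 2.17e-16), and Slc2a1, at -1.42 ± 0.12 (adjusted p = 2.09e-16).

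Kidney F4/80high macrophages carried genes of the renal tubule. The heavy chain Slc3a1, which with Slc7a9 takes up cystine and cationic amino acids in the proximal tubule, read 6.71, 4.37 and 4.91 and differed by 2.16 ± 0.40 (adjusted p = 1.35e-05, at least 2.11 against the floor). Slc7a13, a kidney partner of Slc3a1, read 6.39, 4.20 and 5.07 and differed by 3.20 ± 0.29 (adjusted p = 2.17e-14, at least 2.18 against the floor). The mean of 12 kidney tubule markers was 4.66 to 6.84 in these samples, 5.95 to 8.48 in the kidney CD11bhigh samples and 2.36 to 2.47 in microglia. Replicate 1 was highest among the 3 F4/80high samples for the tubule list and for both carriers, and their part was not tested. Of other epithelial members, Slc7a9 read 4.19, 2.23 and 2.14 in F4/80high and 6.40, 5.38 and 2.06 in CD11bhigh cells, the glutamate carrier Slc1a1 read 4.89, 3.27 and 4.23 and 7.39, 6.84 and 3.80, and the glucose carrier Slc2a2 read 4.22, 2.75 and 2.83 and 6.46, 5.80 and 3.81. In each, CD11bhigh replicate 1 was the highest of the 6 samples. Slc16a7 was also higher, by 1.91 ± 0.24 (adjusted p = 1.48e-09, at least 1.80 against the floor), with 7.23, 6.84 and 7.08 in the 3 samples. The sodium-coupled Slc38a1 differed by -1.49 ± 0.11 (adjusted p = 3.27e-18).

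**Figure D3:**
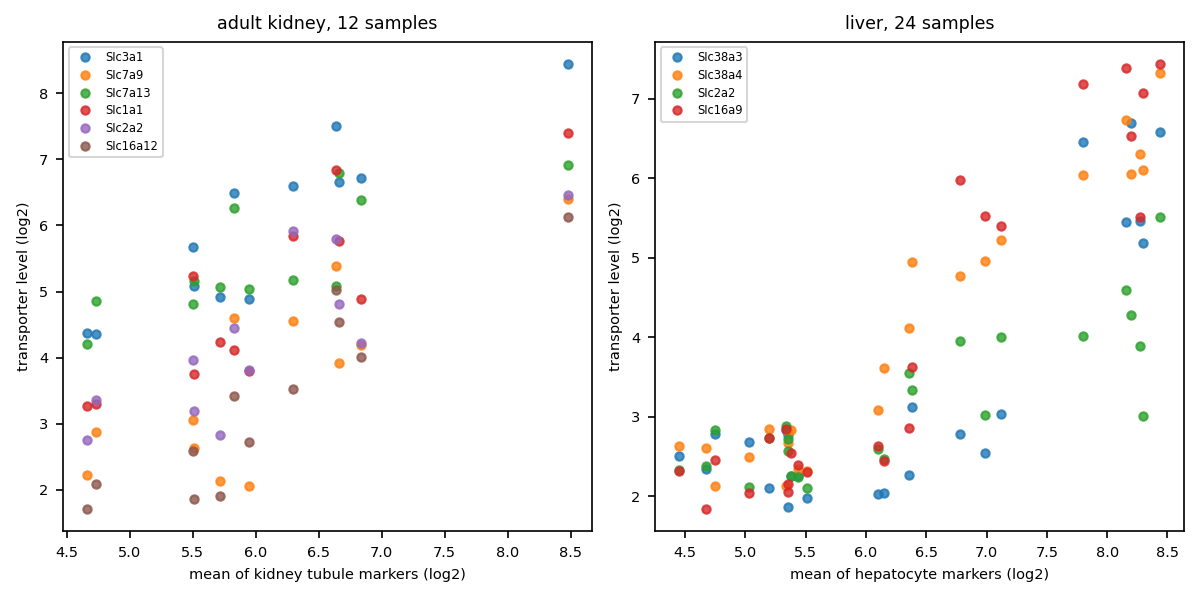
Log2 level of carriers known from epithelia (vertical axis) against the mean log2 level of a marker list (horizontal axis), 1 point per sample and gene: at left 12 adult kidney samples with 12 tubule markers, at right 24 liver samples with 10 hepatocyte markers. The sample highest on the tubule list, wild-type kidney CD11bhigh replicate 1 at 8.48, is also the highest for Slc3a1, and Slc38a4 is above 6 only in the adult Kupffer samples, at list means of 7.80 and more.

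Within an organ, CD11bhigh cells were set against the resident population of wild-type adults. In the liver the call fell on 24 of 61 members beside 28% of all genes, with 11 higher (15.3% of all genes) and 13 lower (12.7%). In the kidney it fell on 22 of 61 members beside 23.6% of all genes, with 13 higher (9.12% of all genes) and 9 lower (14.4%). A fit of the 2 kidney groups alone called 6. Shared by both gates were higher levels of Slc7a11, Slc2a6 and Slc16a3, the exporter of lactate known as MCT4. Slc7a11 read 4.93, 5.60 and 6.04 in liver and 5.45, 6.93 and 7.59 in kidney CD11bhigh cells, and the differences were 3.48 ± 0.49 (adjusted p = 2.49e-08, at least 2.48 against the floor) and 4.71 ± 0.49 (adjusted p = 5.73e-12, at least 3.62 against the floor). Slc16a3 read 7.26, 7.11 and 7.18 against 4.23, 3.95 and 4.14 in the liver, a difference of 3.08 ± 0.22 (adjusted p = 6.59e-19). In the kidney its difference was 2.57 ± 0.22 (adjusted p = 2.41e-15). Slc2a6, a hexose carrier of lysosomes in macrophages, differed by 3.07 ± 0.33 (adjusted p = 5.99e-12) and 3.87 ± 0.33 (adjusted p = 3.05e-15).

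The liver gate was also lower in 3 of the carriers that set Kupffer cells apart. They were Slc16a9 at -4.81 ± 0.42 (adjusted p = 4.4e-15, at least 4.26 against the floor), Slc38a4 at -4.42 ± 0.35 (adjusted p = 1.84e-16, at least 3.68 against the floor) and Slc38a3 at -2.94 ± 0.29 (adjusted p = 5.05e-13, at least 2.70 against the floor). The light chain Slc7a8 differed by -2.85 ± 0.35 (adjusted p = 1.02e-09), with 7.23, 6.73 and 6.65 in CD11bhigh cells and 9.89, 9.39 and 9.87 in Kupffer cells. Glycolysis and lactate enzymes were counted beside the carriers. Of 16 tested, 8 were called higher and 1 lower in the liver gate, beside 15.3% and 12.7% of all genes, and 8 higher and 3 lower in the kidney gate, beside 9.12% and 14.4%. The median difference of the list was 0.47 and 0.49, against 0.03 and -0.01 over all genes. Markers of monocytes averaged 9.21 to 9.68 in liver CD11bhigh cells and 5.19 to 5.65 in Kupffer cells, and their part was not tested.

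The course from EMP through the yolk sac to the tissues was followed in wild type. From EMP to A1 the call fell on 20 of 61 members beside 22.7% of all genes, with 9 higher (12.8% of all genes) and 11 lower (9.88%). EMP carried the glutamine carrier Slc38a5, or SNAT5, at 7.91, 7.75 and 7.83, and A1 at 3.30, 2.84 and 2.67, so that it fell by 4.90 ± 0.29 (adjusted p = 8.18e-23, at least 4.79 against the floor). Slc1a3 read 5.67, 5.60 and 6.07 in EMP and fell by 3.23 ± 0.48 (adjusted p = 9.59e-08, at least 2.74 against the floor). Slc38a4 fell by 3.11 ± 0.35 (adjusted p = 5.21e-11). Slc7a11 rose by 3.22 ± 0.49 (adjusted p = 1.63e-07, at least 1.75 against the floor), from 1.74, 1.58 and 1.39 to 4.43, 5.01 and 4.93. Slc7a8 rose by 2.32 ± 0.35 (adjusted p = 2.18e-07). The mean of 5 tested erythroid markers was 8.05 to 8.42 in EMP and 5.08 to 5.38 in A1, and its part was not tested.

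From A1 to A2 the call fell on 13 of 61 members beside 11.4% of all genes, with 7 higher (5.67% of all genes) and 6 lower (5.7%). Without A2 replicate 1 the count was 8. Slc7a11 returned to 1.95, 1.81 and 1.85 in A2 and fell by 2.92 ± 0.49 (adjusted p = 4.26e-06, at least 1.75 against the floor). Slc16a7 rose by 2.23 ± 0.29 (adjusted p = 1.77e-08), Slc7a8 rose by 2.03 ± 0.35 (adjusted p = 1.14e-05) and Slc38a6 rose by 2.01 ± 0.28 (adjusted p = 7.95e-08). Slc7a7 read 4.93, 4.99 and 5.11 in A1 and 7.09, 7.13 and 6.39 in A2 and rose by 1.86 ± 0.29 (adjusted p = 1.23e-06). Both light chains, Slc7a7 and Slc7a8, thus stood higher in A2, in which the mean of macrophage markers was 8.26 to 8.65 against 6.30 to 6.63 in A1.

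From A2 to E14 microglia the call fell on 21 of 61 members beside 29.2% of all genes, with 10 higher (14% of all genes) and 11 lower (15.2%). Among those that fell were carriers of cationic amino acids, monocarboxylates, glucose and glutamine. Slc7a1 fell by 2.38 ± 0.28 (adjusted p = 1.9e-10), Slc16a1, the monocarboxylate carrier MCT1, fell by 2.11 ± 0.37 (adjusted p = 5.14e-06), and the neuronal-type glucose carrier Slc2a3, or GLUT3, fell by 2.09 ± 0.32 (adjusted p = 3.34e-07). Slc1a5 fell by 2.00 ± 0.49 (adjusted p = 0.000968), from 8.31, 8.18 and 7.77 to 6.01, 6.17 and 6.08. The lysosomal Slc36a1 and Slc38a9 rose, Slc36a1 from 7.21, 6.88 and 6.60 to 8.61, 8.37 and 8.44 and Slc38a9 from 6.37, 6.39 and 6.13 to 7.74, 7.75 and 7.72. Slc36a1 rose by 1.58 ± 0.24 (adjusted p = 1.44e-07) and Slc38a9 rose by 1.44 ± 0.18 (adjusted p = 2.34e-09). Slc7a7 rose by 2.08 ± 0.29 (adjusted p = 3.19e-08). In the same step 8 of 20 lysosomal amino acid sensing genes were called higher and 2 lower, beside 14% and 15.2% of all genes. Of 25 tested genes of the amino acid starvation response, 1 was called higher and 12 lower, beside the same shares. Means of immediate early and heat shock genes were 6.05 to 6.30 in A2 and 5.25 to 5.38 in E14 microglia, and their part was not tested.

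From A2 to E14 Kupffer cells the call fell on 25 of 61 members beside 25.6% of all genes, with 17 higher (11.5% of all genes) and 8 lower (14%). Slc16a9 rose by 3.36 ± 0.42 (adjusted p = 1.52e-09, at least 2.60 against the floor), Slc38a5 rose by 2.73 ± 0.29 (adjusted p = 9.34e-12, at least 2.01 against the floor), Slc38a4 rose by 2.11 ± 0.35 (adjusted p = 2.53e-06, at least 1.95 against the floor) and Slc2a1 rose by 1.78 ± 0.14 (adjusted p = 2.5e-16). Slc7a6, or y+LAT2, another light chain for export of cationic amino acids, fell by 2.23 ± 0.25 (adjusted p = 4.33e-11), from 6.43, 6.46 and 6.27 to 4.33, 3.98 and 4.15. Erythroid markers averaged 7.41 to 7.78 in E14 Kupffer samples and 3.72 to 4.09 in A2, and hepatocyte markers 6.78 to 7.12 and 3.07 to 4.14. The part of either in these changes was not tested.

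Maturation was measured as adult minus E14 in wild type. In Kupffer cells the call fell on 28 of 61 members beside 30% of all genes, with 7 higher (11.8% of all genes) and 21 lower (18.3%). The median change was -0.16 over the members and -0.04 over all genes. Falls included the glucose carrier Slc2a1, while 2 of the 9 tested hexose family members were called higher and 2 lower. Slc2a1 read 9.93, 10.43 and 10.30 at E14 and 6.90, 6.47 and 6.33 in adults and fell by 3.66 ± 0.14 (adjusted p = 8.92e-31). Slc43a1, or LAT3, fell by 4.60 ± 0.27 (adjusted p = 1.6e-22), from 7.84, 8.13 and 8.13 to 3.91, 3.15 and 3.23. Slc16a1 fell by 3.32 ± 0.37 (adjusted p = 3.8e-11), Slc7a5 fell by 2.75 ± 0.30 (adjusted p = 1.74e-11), and Slc38a5 fell by 2.56 ± 0.29 (adjusted p = 4.44e-11, at least 2.01 against the floor).

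Erythroid markers fell in the same comparison, with sample means of 7.41 to 7.78 at E14 and 3.50 to 3.72 in adult Kupffer cells, and 0 of the 5 were at or below the floor at E14. Slc2a1 and Slc43a1 are also carriers of erythroid cells, and EMP, where the list averaged 8.05 to 8.42, carried Slc2a1 at 9.75, 9.72 and 9.71 and Slc43a1 at 8.56, 7.77 and 8.32. The part of erythroid RNA was not tested. Rises were seen for Slc38a3, which rose by 2.96 ± 0.29 (adjusted p = 4.27e-13, at least 2.70 against the floor), Slc38a4, which rose by 1.74 ± 0.35 (adjusted p = 6.75e-05), and Slc16a9, which rose by 1.66 ± 0.42 (adjusted p = 0.00122), beside hepatocyte list means of 6.78 to 7.12 at E14 and 8.16 to 8.44 in adults. Of 16 glycolysis and lactate enzymes, 1 was called higher and 8 lower in adult Kupffer cells, beside 11.8% and 18.3% of all genes.

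In microglia the call fell on 12 of 61 members beside 18.3% of all genes, with 3 higher (6.68% of all genes) and 9 lower (11.7%). Slc1a3 rose by 3.76 ± 0.48 (adjusted p = 3.1e-09, at least 3.45 against the floor), from 2.70, 2.41 and 3.09 at E14, around the floor, to 6.38, 6.87 and 6.24 in adults. Slc16a6 rose by 0.86 ± 0.17 (adjusted p = 8.1e-05). Slc43a3, a carrier of purine nucleobases, fell by 2.62 ± 0.27 (adjusted p = 4.32e-12), from 7.78, 7.38 and 7.67 to 4.51, 4.77 and 5.67. Slc16a10, which carries aromatic amino acids, fell by 1.67 ± 0.22 (adjusted p = 1.21e-08), and Slc43a1 fell by 1.59 ± 0.27 (adjusted p = 3.81e-06).

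In kidney F4/80high macrophages the call fell on 23 of 61 members beside 28.2% of all genes, with 8 higher (12.2% of all genes) and 15 lower (16%), with 2 wild-type samples at E14. Without replicate 2 of that group the count was 15. Slc7a13 rose by 2.63 ± 0.39 (adjusted p = 2.58e-07, at least 2.18 against the floor), beside tubule list means of 2.49 to 2.61 at E14 and 4.66 to 6.84 in adults. Slc43a3 fell by 1.72 ± 0.30 (adjusted p = 7.01e-06) and Slc16a3 fell by 1.47 ± 0.24 (adjusted p = 1.65e-06). Across the plot of adult against E14, Slc43a1, Slc43a3, Slc38a1, Slc38a7, Slc36a4 and Slc16a10 were called lower in all 3 populations. The share of all genes called lower in all 3 was not counted, so this overlap only describes these members. Some of these calls were lost in limma when a sample was left out. The kidney call of Slc16a10 was lost without adult replicate 1 (adjusted p = 0.187) or 2 (adjusted p = 0.0637). It did not hold without either E14 sample, with changes of -0.71 without replicate 1 and -0.58 without replicate 2. The kidney call of Slc38a7 was lost without adult replicate 1 (adjusted p = 0.0719), and its microglia call without adult replicate 2 (adjusted p = 0.0598). Its kidney call did not hold without either E14 sample, with changes of -0.88 without replicate 1 and -0.91 without replicate 2. These fits leave 1 wild-type E14 kidney sample, so their p-values are not given. Slc16a6 was called higher in microglia and kidney F4/80high macrophages and lower in Kupffer cells.

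**Figure D4:**
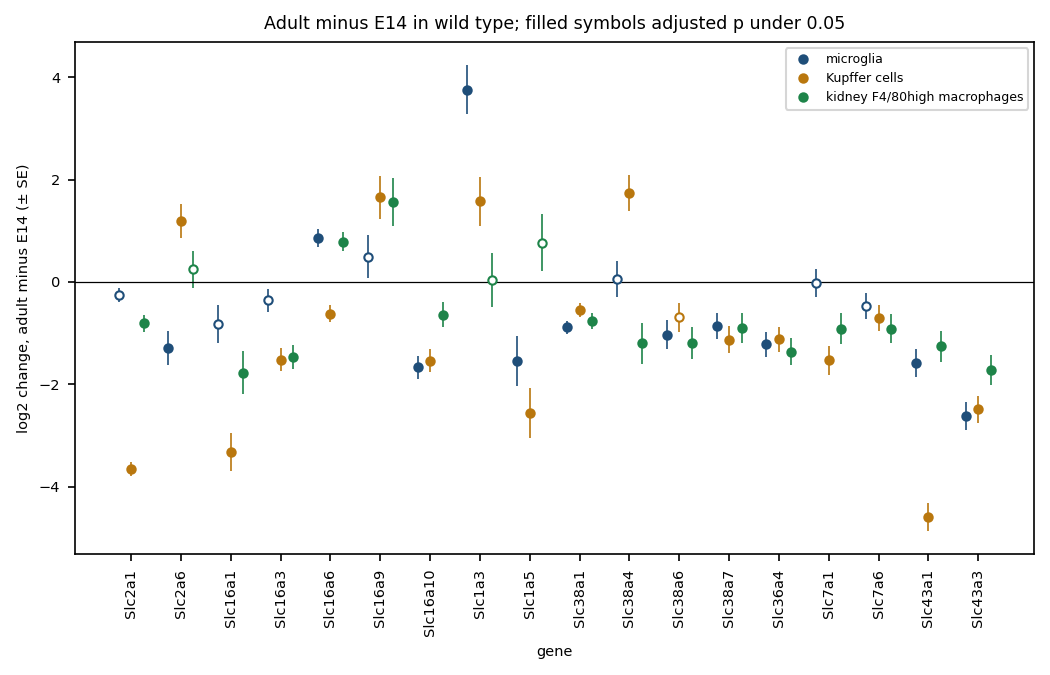
Log2 change from E14 to adult (vertical axis, ± SE) in wild-type microglia, Kupffer cells and kidney F4/80high macrophages for the members called in at least 2 of the 3, filled symbols marking calls. Slc43a1, Slc43a3, Slc38a1, Slc38a7, Slc36a4 and Slc16a10 lie below 0 and filled in all 3, and Slc1a3 rises most, in microglia. The kidney calls of Slc16a10 and Slc38a7 and the microglia call of Slc38a7 were lost when some single samples were left out.

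The knockout was then set against wild type in each of 13 populations. Over these, 128 of 793 tests of members were called, or 16.1%, beside 12.9% of all gene tests, with 53 higher and 75 lower. At least 1 call fell on 47 of the 61 members, calls in both directions on 19, and none on 14. Among adults the call fell in microglia on 14 of 61 members beside 14.6% of all genes, with 4 higher (5.85% of all genes) and 10 lower (8.71%), in Langerhans cells on 20 of 61 members beside 27% of all genes, with 13 higher (16.6% of all genes) and 7 lower (10.4%), and in kidney F4/80high macrophages on 2 of 61 members beside 3.56% of all genes, with 2 higher (1.37% of all genes) and 0 lower (2.19%). In Kupffer cells it fell on 8 of 61 members beside 11.9% of all genes, with 4 higher (4.49% of all genes) and 4 lower (7.39%). A fit of the compared groups alone gave 2, array weights gave 3, without knockout replicate 1 it was 13 and without knockout replicate 2 it was 5. In liver CD11bhigh cells it fell on 13 of 61 members beside 16.8% of all genes, with 8 higher (9.19% of all genes) and 5 lower (7.56%), and on 8 without wild-type replicate 2.

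In kidney CD11bhigh cells of adults the call fell on 15 of 61 members beside 13.6% of all genes, with 4 higher (6.94% of all genes) and 11 lower (6.7%). A fit of the compared groups alone gave 0, array weights gave 7, and the count was 25 without wild-type replicate 3. The tubule list averaged 8.48, 6.64 and 5.95 in its wild-type samples, against 6.30, 4.73 and 5.83 in its knockout samples.

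At E14 the call fell in microglia on 9 of 61 members beside 14.3% of all genes, with 4 higher (8.3% of all genes) and 5 lower (5.98%), and on 15 with only the compared groups. In Kupffer cells it fell on 21 of 61 members beside 23% of all genes, with 5 higher (13.2% of all genes) and 16 lower (9.81%), and on 12 without knockout replicate 3. In liver CD11bhigh cells it fell on 9 of 61 members beside 14% of all genes, with 2 higher (5.73% of all genes) and 7 lower (8.29%), and on 18 with only the compared groups. In kidney CD11bhigh cells it fell on 5 of 61 members beside 14% of all genes, with 3 higher (5.92% of all genes) and 2 lower (8.05%), on 3 without wild-type replicate 3 and on 13 without knockout replicate 3. In kidney F4/80high macrophages it fell on 1 of 61 members beside 1.97% of all genes, with 1 higher (0.591% of all genes) and 0 lower (1.38%), and on 0 without either wild-type replicate or knockout replicate 1 or 2. In the yolk sac it fell in A1 on 2 of 61 members beside 3.36% of all genes, with 0 higher (0.591% of all genes) and 2 lower (2.77%), with 1 left without wild-type replicate 2 or 3 or knockout replicate 1 or 3, and in A2 on 9 of 61 members beside 10% of all genes, with 3 higher (3.77% of all genes) and 6 lower (6.28%).

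**Figure D5:**
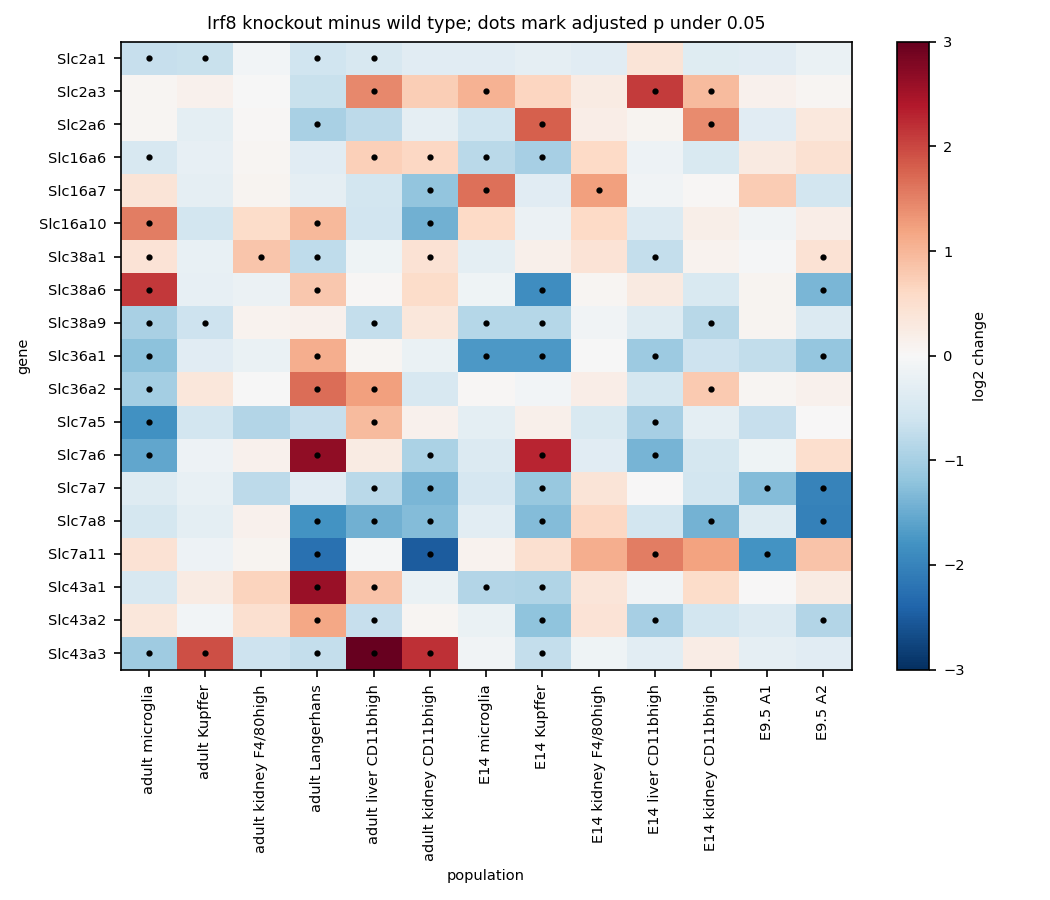
Log2 change of knockout minus wild type (colour, red higher) in 13 populations (columns) for the 19 members called in at least 3 of them (rows), dots marking calls. Slc36a1 and Slc38a9 are lower in most populations with a call, Slc2a3 is called higher in 4 and lower in 0, and Slc43a3 is higher in 3 and lower in 3.

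The lysosomal Slc36a1 and Slc38a9 were called lower in the knockout in several populations. Slc36a1 was called lower in 5, beside 2.89% of all genes lower in at least 5, and higher in 1. In adult microglia it read 8.89, 8.97 and 8.83 in wild type and 7.80, 7.33 and 7.85 in knockout and fell by 1.24 ± 0.24 (adjusted p = 4.67e-05). E14 microglia read 8.61, 8.37 and 8.44 (wild type) and 6.48, 7.02 and 6.74 (knockout), and it fell by 1.73 ± 0.24 (adjusted p = 5.7e-08). The 3 wild-type samples lay above the 3 knockout samples in both. In E14 Kupffer cells it fell by 1.72 ± 0.24 (adjusted p = 4.44e-08), in E14 liver CD11bhigh cells it fell by 1.09 ± 0.24 (adjusted p = 0.000502), and in A2 it fell by 1.15 ± 0.24 (adjusted p = 0.000257). Langerhans cells went the other way, from 3.99, 4.47 and 4.51 to 5.18, 5.64 and 5.37, and there it rose by 1.08 ± 0.24 (adjusted p = 0.00022).

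Slc38a9, the lysosomal arginine sensor, was called lower in 6 populations and higher in none of the 13. In adult microglia it fell by 0.97 ± 0.18 (adjusted p = 4.22e-05), from 7.81, 7.65 and 8.09 to 6.77, 7.25 and 6.62. In E14 microglia it fell by 0.86 ± 0.18 (adjusted p = 0.00039), in E14 Kupffer cells it fell by 0.86 ± 0.18 (adjusted p = 0.000246), and in E14 kidney CD11bhigh cells it fell by 0.84 ± 0.18 (adjusted p = 0.000544). The remaining calls were in CD11bhigh cells of the adult liver and in adult Kupffer cells. The Kupffer call was lost in limma without knockout replicate 2 (adjusted p = 0.193), knockout replicate 3 (adjusted p = 0.109) or wild-type replicate 1 (adjusted p = 0.113). Of all genes tested, 1.66% were called lower in at least 6 populations, as were 2 members, Slc7a8 and, with this Kupffer call counted, Slc38a9. Of 20 genes of lysosomal amino acid sensing, 0 were called higher and 5 lower in adult microglia, beside 5.85% and 8.71% of all genes. In E14 microglia 1 was higher and 3 lower, beside 8.3% and 5.98%, and in E14 Kupffer cells 2 were higher and 4 lower, beside 13.2% and 9.81%. None of these list counts was tested against the share of all genes. Markers moved with these populations. Microglia markers averaged 10.14 to 10.33 in wild-type and 8.62 to 8.77 in knockout adult microglia and 9.51 to 9.61 and 7.67 to 7.98 at E14, where neutrophil markers averaged 3.36 to 6.34 and 7.95 to 8.34. Kupffer markers averaged 8.00 to 8.28 and 4.84 to 5.53 in E14 Kupffer cells, monocyte markers 8.22 to 8.29 and 6.26 to 6.56 in E14 liver CD11bhigh cells, and macrophage markers 8.26 to 8.65 and 6.02 to 6.30 in A2. Their part in the falls of Slc36a1 and Slc38a9 was not tested.

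Light chains of the macrophage type, Slc7a7 and Slc7a8, were lower in the knockout in A2. There, Slc7a7 read 7.09, 7.13 and 6.39 in wild type and 4.99, 4.49 and 5.10 in knockout and fell by 2.01 ± 0.29 (adjusted p = 2.66e-07). Slc7a8 read 8.54, 8.74 and 8.36 and 6.47, 6.59 and 6.49 and fell by 2.03 ± 0.35 (adjusted p = 1.58e-05). The groups did not overlap for either gene. In A1, Slc7a7 fell by 1.30 ± 0.29 (adjusted p = 0.00248), a call lost without knockout replicate 1 (adjusted p = 0.0549). Macrophage markers averaged 8.26 to 8.65 in wild-type and 6.02 to 6.30 in knockout A2, and their part was not tested. A window upstream of a Slc7a7 start is shown because Slc7a7 fell with the Irf8 label in the yolk sac and held a match to the composite motif at which IRF8 is known to bind with ETS factors. The capitals mark that motif, GGAA and GAAA with any 2 bases between, at -208 (RefSeq, GRCm38.p6, chr14:54409473-54409722, minus strand).
Slc7a7: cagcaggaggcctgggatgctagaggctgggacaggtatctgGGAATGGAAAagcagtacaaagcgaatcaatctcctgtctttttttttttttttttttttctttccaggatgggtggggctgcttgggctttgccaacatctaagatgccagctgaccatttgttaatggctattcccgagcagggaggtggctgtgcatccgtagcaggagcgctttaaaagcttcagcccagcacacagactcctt

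The motif, on either strand, was in 2.30% of 32851 windows. By gene, it was in windows of 2.68% of 27025 genes and of 3 of the 51 members, Slc1a2, Slc7a1 and Slc7a7. In the knockout, Slc7a1 was called higher in 2 populations and lower in 0. Slc1a2 was called lower in 1 and higher in 0, a call lost in 4 of 6 fits that left out 1 sample. The windows of Slc7a8, Slc36a1 and Slc38a9, each called lower in several populations, held no match. Binding was not tested. The core of the interferon-stimulated response element, GAAA and GAAA with any 2 bases between, was in 2.98% of windows, 3.46% of genes and 0 of the 51 members. Slc7a7 has several starts, and its other windows did not hold the composite motif.

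Slc7a8 was called lower in 6 populations. In Langerhans cells it fell by 1.79 ± 0.35 (adjusted p = 4.87e-05), from 6.05, 6.56 and 6.31 to 4.76, 4.64 and 4.14. In adult liver CD11bhigh cells it fell by 1.45 ± 0.35 (adjusted p = 0.00154), and in E14 kidney CD11bhigh cells it fell by 1.42 ± 0.35 (adjusted p = 0.0028). In adult kidney CD11bhigh cells it fell by 1.30 ± 0.35 (adjusted p = 0.00747), a call lost without knockout replicate 2 (adjusted p = 0.394) or wild-type replicate 1 (adjusted p = 0.128) and in the fit of the compared groups alone (adjusted p = 0.498). In E14 Kupffer cells it fell by 1.29 ± 0.35 (adjusted p = 0.00454), a call lost without knockout replicate 3 (adjusted p = 0.053). The other population was A2, above. Neutrophil markers were higher in the adult liver and E14 kidney populations, with 5.15 to 6.66 in wild type and 9.85 to 10.15 in knockout in adult liver, and 4.75 to 7.15 and 8.13 to 9.92 in E14 kidney. Their part was not tested.

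The cystine carrier Slc7a11 was called lower in 3 populations, beside 9.57% of all genes lower in at least 3, and higher in 1. In Langerhans cells it fell by 2.25 ± 0.49 (adjusted p = 0.000188), from 6.61, 6.81 and 6.70 to 4.67, 4.92 and 3.78, with no overlap. In adult kidney CD11bhigh cells it fell by 2.50 ± 0.49 (adjusted p = 0.000141), from 5.45, 6.93 and 7.59 to 3.91, 2.86 and 5.69. The highest knockout sample there lay above the lowest wild-type sample, and limma with only the compared groups gave an adjusted p of 0.184. In A1 it fell by 1.79 ± 0.49 (adjusted p = 0.0212, at least 1.75 against the floor), a call lost without knockout replicate 3 (adjusted p = 0.177), wild-type replicate 2 (adjusted p = 0.105) or wild-type replicate 3 (adjusted p = 0.102). In E14 liver CD11bhigh cells it rose by 1.54 ± 0.49 (adjusted p = 0.0228), with overlapping values of 3.00, 2.80 and 3.70 and 3.60, 5.11 and 5.40, a call lost without knockout replicate 2 (adjusted p = 0.132), knockout replicate 3 (adjusted p = 0.162), wild-type replicate 1 (adjusted p = 0.0846) or wild-type replicate 2 (adjusted p = 0.109).

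Further members moved in Langerhans cells, where titles name GFP+ cells in wild type alone and handling genes averaged 8.52 to 8.92 in wild type and 9.82 to 10.22 in knockout. Slc7a6 read 3.92, 4.17 and 3.86 and 6.57, 6.38 and 6.97 and rose by 2.66 ± 0.25 (adjusted p = 1.53e-13). Slc43a1 read 3.40, 2.90 and 2.73 and 5.29, 5.19 and 6.27 and rose by 2.58 ± 0.27 (adjusted p = 6.68e-12, at least 2.54 against the floor). The hexose carrier Slc2a12 rose by 2.37 ± 0.25 (adjusted p = 1.39e-11, at least 1.30 against the floor), and Slc36a2, which carries proline and glycine, rose by 1.67 ± 0.26 (adjusted p = 3.76e-07). For these 4 genes all knockout samples lay above all wild-type samples. Keratinocyte and fibroblast markers averaged 5.03 to 5.45 and 5.70 to 5.97, and the part of none of these was tested.

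In adult microglia the LAT1 gene Slc7a5 fell by 1.81 ± 0.30 (adjusted p = 3.42e-06), from 7.77, 7.23 and 7.60 to 6.26, 5.70 and 5.22, and Slc7a6 fell by 1.56 ± 0.25 (adjusted p = 1.13e-06). Slc38a6, a member of the sodium-coupled family, rose by 2.13 ± 0.28 (adjusted p = 1.24e-08), and Slc16a10 rose by 1.53 ± 0.22 (adjusted p = 1.35e-07). Slc1a3 was not called, with a change of -0.14 ± 0.48 (adjusted p = 0.926). Its knockout samples read 7.73, 8.03 and 3.31, so that replicates 1 and 2 were above all wild-type samples and replicate 3 was below them. In E14 microglia Slc1a3 rose by 1.96 ± 0.48 (adjusted p = 0.00211, at least 1.65 against the floor), from 2.70, 2.41 and 3.09 to 5.14, 4.21 and 4.73. Slc16a7 rose by 1.65 ± 0.29 (adjusted p = 2.21e-05) in the same cells. Of 16 glycolysis and lactate enzymes, 1 was called higher and 5 lower in knockout adult microglia, beside 5.85% and 8.71% of all genes. Of 25 amino acid starvation genes, 1 was higher and 6 lower. Microglia markers averaged 10.14 to 10.33 in wild-type and 8.62 to 8.77 in knockout adults, and their part was not tested.

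In E14 Kupffer cells Slc7a6 rose by 2.28 ± 0.25 (adjusted p = 7.2e-11), from 4.33, 3.98 and 4.15 to 6.15, 6.40 and 6.75, and Slc2a6 rose by 1.80 ± 0.33 (adjusted p = 1.84e-05). Slc16a9 fell by 2.56 ± 0.42 (adjusted p = 2.37e-06), Slc38a6 fell by 1.87 ± 0.28 (adjusted p = 4.21e-07) and Slc38a5 fell by 1.51 ± 0.29 (adjusted p = 4.46e-05). Kupffer markers averaged 8.00 to 8.28 in wild type and 4.84 to 5.53 in knockout, and hepatocyte markers 6.78 to 7.12 and 5.20 to 6.38. Their part was not tested.

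Among hexose carriers, Slc2a3 was called higher in 4 populations and lower in 0. Of all genes, 3.71% were called higher in at least 4 populations. In E14 liver CD11bhigh cells it read 4.47, 5.26 and 4.65 in wild type and 6.94, 7.07 and 6.66 in knockout and rose by 2.10 ± 0.32 (adjusted p = 1.23e-06). In adult liver CD11bhigh cells it rose by 1.44 ± 0.32 (adjusted p = 0.000509). In E14 microglia it rose by 1.05 ± 0.32 (adjusted p = 0.0183), a call lost without knockout replicate 2 (adjusted p = 0.0948) or wild-type replicate 2 (adjusted p = 0.07). In E14 kidney CD11bhigh cells it rose by 0.96 ± 0.32 (adjusted p = 0.0342), a call lost without knockout replicate 1 (adjusted p = 0.295), knockout replicate 2 (adjusted p = 0.291), wild-type replicate 1 (adjusted p = 0.068), wild-type replicate 2 (adjusted p = 0.075) or wild-type replicate 3 (adjusted p = 0.0986) or with the compared groups alone (adjusted p = 0.272). Neutrophil markers were higher in the knockout samples of these 4 populations. They averaged 9.15 to 9.41 in wild type and 10.15 to 10.17 in knockout E14 liver CD11bhigh cells. In the adult liver cells they averaged 5.15 to 6.66 and 9.85 to 10.15, and in E14 microglia 3.36 to 6.34 and 7.95 to 8.34. The E14 kidney means are given above. These markers were also higher in knockout adult kidney CD11bhigh cells, where no Slc2a member was called. Their part was not tested. Slc2a1 was called lower in 4 populations, among them adult microglia, where it fell by 0.70 ± 0.14 (adjusted p = 0.000137). Lower calls in at least 4 populations fell on 5.08% of all genes.

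Slc43a3 was called higher in 3 adult populations and lower in 3, beside 9% and 9.57% of all genes so called in at least 3 populations. It fell by 1.06 ± 0.27 (adjusted p = 0.00288) in adult microglia, a call lost without knockout replicate 1 (adjusted p = 0.0785) or wild-type replicate 3 (adjusted p = 0.105). In Langerhans cells it fell by 0.72 ± 0.27 (adjusted p = 0.0401), a call lost without knockout replicate 3 (adjusted p = 0.433), wild-type replicate 1 (adjusted p = 0.145) or wild-type replicate 3 (adjusted p = 0.0728), and in E14 Kupffer cells it fell by 0.72 ± 0.27 (adjusted p = 0.0457), a call lost without knockout replicate 2 (adjusted p = 0.124), knockout replicate 3 (adjusted p = 0.141), wild-type replicate 1 (adjusted p = 0.0799), wild-type replicate 2 (adjusted p = 0.0901) or wild-type replicate 3 (adjusted p = 0.117). Fits of the compared groups alone gave adjusted p values of 0.0723 in adult microglia and 0.114 in Langerhans cells, and limma after median centring gave an adjusted p of 0.0509 in E14 Kupffer cells. The 3 rises stayed called when any one sample was left out. In liver CD11bhigh cells it read 4.48, 4.87 and 4.92 in wild type and 8.52, 8.16 and 8.36 in knockout and rose by 3.59 ± 0.27 (adjusted p = 4.02e-17). Neutrophil markers there averaged 5.15 to 6.66 and 9.85 to 10.15. In kidney CD11bhigh cells it rose by 2.18 ± 0.27 (adjusted p = 2.07e-08), with an adjusted p of 0.0501 in limma with only the compared groups, beside neutrophil list means of 3.48 to 4.56 and 7.49 to 8.34. In Kupffer cells it read 6.29, 5.69 and 6.93 and 8.02, 8.67 and 8.02 and rose by 1.93 ± 0.27 (adjusted p = 3.11e-07), beside endothelial list means of 4.72 to 6.27 and 6.92 to 7.39. Their part was not tested.

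Kidney F4/80high macrophages had 2 calls in adults and 1 at E14. In adults, Slc16a14, a carrier of unknown substrate, rose by 1.80 ± 0.29 (adjusted p = 8.78e-06, at least 0.99 against the floor), and Slc38a1 rose by 0.84 ± 0.13 (adjusted p = 5.79e-06), with 7.45 in each knockout sample against 6.37, 6.60 and 6.85 in wild type. At E14, Slc16a7 rose by 1.24 ± 0.33 (adjusted p = 0.0244), a call lost without knockout replicate 1 (adjusted p = 0.151), knockout replicate 2 (adjusted p = 0.0848), wild-type replicate 1 (adjusted p = 0.293) or wild-type replicate 2 (adjusted p = 0.129).

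Whether the knockout change differed between adult and E14 was tested as a difference of changes. In microglia it was called for 11 of 61 members beside 10.5% of all genes, with 6 higher (3.7% of all genes) and 5 lower (6.8%). The count was 6 without any one of adult wild-type replicate 2, adult knockout replicate 3, E14 wild-type replicate 1 or E14 knockout replicate 1, and 7 without E14 knockout replicate 2 or 3, and 4 of the 11 calls held in every fit that left out 1 sample. In Kupffer cells it was called for 15 of 61 members beside 16.3% of all genes, with 12 higher (5.88% of all genes) and 3 lower (10.5%), and for 5 with only the compared groups. In kidney F4/80high macrophages it was called for 1 of 61 members beside 1.04% of all genes, with 1 higher (0.579% of all genes) and 0 lower (0.456%), and for 0 without adult knockout replicate 3 or E14 wild-type replicate 1. In Kupffer cells the difference was 2.65 ± 0.38 (adjusted p = 7.15e-07) for Slc43a3 and -2.44 ± 0.35 (adjusted p = 6.73e-07) for Slc7a6, which rose at E14 and read 3.64, 3.59 and 3.13 and 3.18, 3.44 and 3.27 in adults. In microglia it was 2.27 ± 0.40 (adjusted p = 2.91e-05) for Slc38a6.

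The pattern over the 27 group means was most alike, among members, for Slc3a1 with Slc7a13 and with Slc7a9 (Pearson r = 0.91 for each). Among the members of wide range, Slc7a7 was nearest to Slc7a8 (r = 0.90) and Slc7a5 to Slc7a1 (r = 0.90). Slc43a1 was nearest to Slc16a1 (r = 0.89), and Slc7a11 to Slc2a6 (r = 0.78). The most opposite member was Slc7a1 for both Slc7a7 (r = -0.75) and Slc7a8 (r = -0.68). These values are descriptions over groups that share tissues and samples of one fit.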

How the data were processed

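The authors deposited log2 values. The submitters' processing notes name RMA and the Affymetrix Expression Console, without versions, and neither they nor the labels name a build. Tissues were digested, cells sorted by flow cytometry and the RNA amplified before labelling, per the labels' protocols. Array medians lay between 2.942 and 3.195, and precision is limited by how few arrays each group has. Of 41345 probes, 25335 were in the platform annotation, 23521 with 1 gene symbol, 1814 with several (not used) and 0 with none, and 16010 were unnamed here. Their 22180 genes were each represented by the brightest probe.

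Genes above 3.041, the 50th percentile of all values, in at least 2 arrays were kept (17099). The 2 array runs of A2 knockout replicate 2 were averaged. limma 3.58.1 in R 4.3.3 fitted 1 mean per group over all 80 samples (lmFit, contrasts.fit, eBayes with trend, two-sided), with Benjamini-Hochberg adjustment over all genes and a threshold of 0.05. Tested on simulated data, the fit called 61% of genes shifted by 1 and 99% of those shifted by 2 on the log2 scale, with 10 false calls, in the comparison of adult microglia over 17099 genes, and 47% and 95%, with 4 false calls, in that of E14 kidney F4/80high macrophages. The simulated noise was normal, independent and of equal spread in all groups, whereas array weights in the data ran from 0.243 to 2.16. Comparisons of groups with low weights, such as adult Kupffer and adult kidney CD11bhigh cells, were not simulated, and these rates do not describe them.

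Named members were, per comparison, up to 5 with the largest rise and 5 with the largest fall among called members whose samples did not overlap, the 12 of widest range, and each member whose knockout change differed between stages. A member so named may be given in other comparisons too. Some knockout changes of Slc2a1, Slc2a3, Slc7a8, Slc7a11, Slc36a1, Slc38a9 and Slc43a3, and the change of Slc2a1 from A2 to E14 Kupffer cells, were given in this way, after their values were seen. The members, the pathway lists and the marker lists were chosen with earlier results of these data known. Lists are described by counts and medians.

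Replicate numbers were not taken to pair samples, since the labels do not say whether same-numbered samples came from the same animals. The titles number the gates of an organ alike. Correlations of same-numbered deviations were 0.386, 0.099 and 0.096 between the adult kidney gates and 0.005, 0.055 and 0.014 between the adult liver gates. With so few samples per gate they cannot decide whether animals were shared, so a pairing may have been ignored. Promoter windows are the 250 bases before each RefSeq start (GRCm38.p6), found for 51 members. Alternatives were other normalizations, filters, probe rules, array weights, a replicate block, fits of only the compared groups and leaving out each sample.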

Additional observations from a re-analysis of the deposited data

Results flagged for a closer look

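The change of the knockout against wild type was compared between adult and E14 in each population sampled at both stages, as the adult change minus the E14 change on the log2 scale, and the members below passed an adjusted p of 0.05 in limma. In microglia the adult change was the lower one by a difference of -2.10 for Slc1a3, -1.51 for Slc7a5, -1.27 for Slc16a7, -1.15 for Slc7a6 and -1.07 for Slc36a2. It was the higher one by 2.27 for Slc38a6, 1.64 for Slc7a15, 1.19 for Slc2a4rg-ps, 1.12 for Slc38a10, 0.93 for Slc16a10 and 0.70 for Slc38a1. The Slc1a3 difference was -0.57 without adult knockout replicate 3 (adjusted p = 0.496), whose Slc1a3 level was 3.31 beside 7.73 and 8.03, and the adjusted p was 0.0583 to 0.0973 without any of 5 other microglia samples. In Kupffer cells the difference was -2.44 for Slc7a6, -2.08 for Slc2a6 and -1.06 for Slc36a4. On the higher side it was 2.65 for Slc43a3, 2.31 for Slc16a5, 2.02 for Slc2a4, 1.68 for Slc16a9, 1.63 for Slc38a6, 1.58 for Slc7a15, 1.39 for Slc38a5, 1.38 for Slc36a1, 1.15 for Slc43a1, 1.11 for Slc43a2, 1.06 for Slc38a7 and 0.75 for Slc16a6. In kidney F4/80high macrophages it was 1.95 for Slc16a14. That call was lost without either of 2 samples. No bound against the floor was worked out for these differences. Group means were above the floor in 2 of 27 groups for Slc2a4, 4 for Slc38a5 and 5 for Slc16a14. They were above it in 6 for Slc36a2, 6 for Slc1a3 and 7 for Slc7a15. The differences of these members thus rest in part on background values. Of the calls above, 4 of 11 in microglia and 6 of 15 in Kupffer cells held in every fit that left out 1 sample, and Slc16a10 and Slc36a2 in microglia and Slc16a9 in Kupffer cells were each lost in 9 of 12 such fits, and Slc2a4rg-ps in microglia in 8. The Kupffer marker list averaged 8.00 to 8.28 in wild-type and 4.84 to 5.53 in knockout E14 Kupffer samples, and its part in the Kupffer differences was not tested.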

How the results depend on the processing

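Of 234 changes of named members, 0 reversed in any alternative and 163 stayed called in every fit. Calls were lost for 34 with only the compared groups, 10 with array weights, 6 with no filter, 5 with the mean of all probes, 4 with median centring and 4 with quantile normalization. Counts of called members that moved by over 1.5 times were as follows. With only the compared groups, knockout counts were 2 in adult Kupffer cells, 0 in adult kidney CD11bhigh cells, 15 in E14 microglia, 2 in E14 kidney F4/80high macrophages, 18 in E14 liver and 3 in E14 kidney CD11bhigh cells and 5 in A1, and the kidney gate count was 6. The counts of differing knockout changes were then 5 in Kupffer cells and 0 in kidney F4/80high macrophages, which was also 0 with the floor at the 75th percentile. With array weights, knockout counts were 3 in adult Kupffer cells, 4 in adult kidney F4/80high macrophages, 7 in adult kidney CD11bhigh cells, 3 in E14 kidney F4/80high macrophages, 19 in E14 liver and 12 in E14 kidney CD11bhigh cells and 6 in A1, and 2 differing changes were called in kidney F4/80high macrophages. The cause was not tested, except that a fit of only the compared groups has fewer samples. With the replicate number as a replicate block in the fit of all groups, adult microglia kept a count of 14 and no count moved by over 1.5 times. With the block and only the 2 gates, the kidney count was 9.

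Leaving out each sample in turn gave these ranges of knockout counts: 10 to 13 in adult microglia, 5 to 13 in Kupffer cells, 2 to 3 in kidney F4/80high macrophages, 16 to 19 in Langerhans cells, 8 to 12 in liver and 10 to 25 in kidney CD11bhigh cells. At E14 they were 6 to 9 in microglia, 12 to 20 in Kupffer cells, 0 to 1 in kidney F4/80high macrophages, 6 to 9 in liver and 3 to 13 in kidney CD11bhigh cells, and in the yolk sac 1 to 2 in A1 and 6 to 8 in A2. From EMP to A1 the range was 18 to 19, from A1 to A2 8 to 12, from A2 to E14 microglia 18 to 20 and to E14 Kupffer cells 22 to 24. Maturation gave 9 to 14 in microglia, 25 to 28 in Kupffer cells and 15 to 24 in kidney F4/80high macrophages. Between adult tissues it was 30 to 35 for microglia, 28 to 32 for Kupffer cells, 23 to 29 for kidney F4/80high macrophages, 37 to 42 for Langerhans cells and 45 to 48 by the F-test. The gates gave 22 to 25 in liver and 15 to 23 in kidney, and differing knockout changes 6 to 12 in microglia, 10 to 15 in Kupffer cells and 0 to 1 in kidney F4/80high macrophages. Median centring moved the median of all genes by -0.120 from A2 to E14 Kupffer cells, 0.104 for microglia against other tissues and 0.149 in the liver gate, and by less than 0.1 in the other comparisons. A member under the floor has no order among groups where it is under it.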
